A study of Mus musculus with 27 samples.

Results

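The 9 genes of the Slc22 family described here were followed through mouse liver and mouse liver organoids: Slc22a3, Slc22a5, Slc22a7, Slc22a18, Slc22a23, Slc22a26, Slc22a27, Slc22a28 and Slc22a30. They are 9 of the 25859 genes listed for liver and of the 27178 listed for organoids. They were chosen by name with earlier results of these same libraries known, and which contrast each was selected on is not recorded. Differences between groups are therefore given for them as a description. Whether a member passed the threshold over all genes is stated, but no p-value is printed for it and the call supports nothing.

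RNA was sequenced in 27 libraries that form 9 groups of 3. Liver tissue came from healthy mice, from mice with fibrosis induced by carbon tetrachloride (CCl4, a solvent toxic to hepatocytes), and from CCl4 mice that also received Sargassum japonica, a brown seaweed, given here as an extract. Organoids called in vivo fibrosis organoids came from livers of mineral oil mice (oil is the vehicle of CCl4) or of CCl4 mice, the latter with or without 24 hours of extract in the dish. Organoids called in vitro fibrosis organoids all came from healthy mouse liver and were untreated, given transforming growth factor β1 (TGF-β1) for 24 hours, or given TGF-β1 and then the extract for another 24 hours. All organoids had been kept in differentiation medium for 4 to 5 days. Strain, age, doses and the length of CCl4 exposure are not given in the labels, nor is it said whether the 3 libraries of a group came from separate animals or cultures. If they did not, the tests measure only technical spread.

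The SLC22 family consists of membrane transporters that carry small charged or zwitterionic molecules across the plasma membrane of liver, kidney, gut and other cells. Organic cation transporters such as Slc22a3 (Oct3) move monoamines and cationic drugs, Slc22a5 (Octn2) takes up carnitine with sodium, and organic anion transporters such as Slc22a7 (Oat2) move anionic metabolites and drugs. Slc22a26, Slc22a27, Slc22a28 and Slc22a30 belong to a rodent expansion of organic anion transporter-like genes. Slc22a18 lies in an imprinted domain, and it and Slc22a23 have no settled substrate.

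The organic anion transporter-like members are neighbours. In GRCm38, the build of the reference used here (mm10 in the submitters' processing notes), 6 Slc22 genes stand in a row on the minus strand of chromosome 19, from 7673075 to 8405111, with no other protein-coding gene between them: Slc22a19, Slc22a26, Slc22a27, Slc22a28, Slc22a29 and Slc22a30. The 4 members among them span 7780094 to 7802667 (Slc22a26), 7864388 to 7966517 (Slc22a27), 8061958 to 8131982 (Slc22a28) and 8335371 to 8405111 (Slc22a30). Their coding sequences were compared because reads of near-identical copies may be assigned to the wrong gene. The first 90 coding bases of the 5 copies other than Slc22a19, which had a single read in liver, are printed here. They are from the GENCODE transcripts, 5′ to 3′, with the bases that differ from Slc22a26 in capitals.
Slc22a26 (chr19:7802360-7802449, minus strand): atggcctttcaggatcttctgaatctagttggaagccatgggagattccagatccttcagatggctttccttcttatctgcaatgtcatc
Slc22a27 (chr19:7926681-7926770, minus strand): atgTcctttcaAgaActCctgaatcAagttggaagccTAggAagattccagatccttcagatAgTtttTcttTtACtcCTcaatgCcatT
Slc22a29 (chr19:8218584-8218673, minus strand): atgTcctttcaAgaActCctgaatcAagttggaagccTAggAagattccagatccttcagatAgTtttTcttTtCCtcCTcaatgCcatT
Slc22a28 (chr19:8131687-8131776, minus strand): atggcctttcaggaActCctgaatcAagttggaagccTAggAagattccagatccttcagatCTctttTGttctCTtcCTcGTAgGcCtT
Slc22a30 (chr19:8404816-8404905, minus strand): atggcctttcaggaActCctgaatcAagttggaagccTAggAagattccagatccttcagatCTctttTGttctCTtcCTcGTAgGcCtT
In these letters Slc22a28 and Slc22a30 did not differ, Slc22a27 and Slc22a29 differed at 1 of 90 bases, and Slc22a26 and Slc22a27 differed at 18. Over the whole coding sequence, Slc22a28 and Slc22a30 were 98.8% identical, Slc22a27 and Slc22a29 97.3%, Slc22a27 and Slc22a28 91.7%, and Slc22a26 and Slc22a27 74.2%. Of the distinct 50-base stretches of the Slc22a28 transcript, 53.9% also occur in another gene, most of them in Slc22a30. That share was 34.2% for Slc22a30, 29.9% for Slc22a27 (mostly in Slc22a29) and 6.21% for Slc22a26, whose shared stretches all lie in the pseudogene AC115715.1. Slc22a26 and Slc22a27 shared no stretch of 50 bases. Slc22a5 shared 26.3%, nearly all with its neighbour Slc22a21, while Slc22a3, Slc22a7, Slc22a18 and Slc22a23 shared none. The pairs that share the most are thus Slc22a28 with Slc22a30, Slc22a27 with Slc22a29 and Slc22a5 with Slc22a21; Slc22a27 also shares 149 such stretches with Slc22a28 and 169 with Slc22a30. No label or header says how reads that match several genes were assigned.

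The 250 bases upstream of the annotated start are printed for the 4 members of the cluster, because their responses in liver differed (RefSeq promoters, GRCm38.p6, 5′ to 3′). Capitals mark matches on either strand to TTCNNNGAA (the STAT motif), AGGTCA (the core motif of nuclear receptors), GTTAAT (the core motif of HNF1) or TTGCNNAA (the C/EBP motif).
Slc22a28 (chr19:8131983-8132232, minus strand): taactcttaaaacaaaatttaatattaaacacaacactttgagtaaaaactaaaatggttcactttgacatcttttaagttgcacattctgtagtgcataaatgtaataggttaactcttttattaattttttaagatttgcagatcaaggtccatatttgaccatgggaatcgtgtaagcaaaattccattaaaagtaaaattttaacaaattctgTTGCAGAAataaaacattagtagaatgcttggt
Slc22a30 (chr19:8405106-8405355, minus strand): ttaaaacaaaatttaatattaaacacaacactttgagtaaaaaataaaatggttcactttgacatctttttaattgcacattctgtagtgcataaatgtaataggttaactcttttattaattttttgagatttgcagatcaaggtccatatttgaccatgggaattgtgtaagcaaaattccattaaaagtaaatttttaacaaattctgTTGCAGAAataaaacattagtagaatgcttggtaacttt
Slc22a26 (chr19:7802668-7802917, minus strand): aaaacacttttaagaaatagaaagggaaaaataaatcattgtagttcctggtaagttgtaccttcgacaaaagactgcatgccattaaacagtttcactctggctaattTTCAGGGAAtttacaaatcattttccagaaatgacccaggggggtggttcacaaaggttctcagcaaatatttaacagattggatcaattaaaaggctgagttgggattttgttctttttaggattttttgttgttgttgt
Slc22a27 (chr19:7966028-7966277, minus strand): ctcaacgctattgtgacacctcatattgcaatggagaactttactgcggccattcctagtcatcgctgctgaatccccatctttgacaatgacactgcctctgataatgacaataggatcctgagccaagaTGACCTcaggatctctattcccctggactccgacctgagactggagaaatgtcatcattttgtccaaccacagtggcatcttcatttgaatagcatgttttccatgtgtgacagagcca
Slc22a28 and Slc22a30 were also close copies upstream, with 97.5% of aligned bases identical, and each held 1 C/EBP match near the start. Slc22a26 held 1 STAT match and Slc22a27 1 nuclear receptor core motif, and their upstream sequences were 55.6% identical. The window of Slc22a27 lies far from its coding start (7966028 against 7926770), whereas those of the other members lie close to theirs (7802668 against 7802449 for Slc22a26). It was 54.1% identical to the window of the near copy Slc22a29, so it may not be the matching promoter. Among 27025 promoters of the same length, 9.55% hold the C/EBP motif, 7.18% the STAT motif, 13.8% the nuclear receptor core and 6.52% the HNF1 core, so such matches occur in many promoters. None of the 4 motifs occurred in the windows of Slc22a3, Slc22a5, Slc22a18 and Slc22a23, and a promoter of Slc22a7 was not used here. Which start these libraries used was not measured.

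Libraries held 44509074 to 64842274 reads. Values are CPM, the usual read counts scaled to a common effective library size, on which 3 reads are 0.05 to 0.072 CPM. Differences are log2 fold changes ± SE from limma over all genes with enough reads, and a gene is said to have risen or fallen when its adjusted p was under 0.05. The authors' scaling factors bear on liver: without them, the median log2 change of all genes is 0.38 for CCl4 against healthy liver, -0.23 for extract against CCl4 liver and 0.13 for extract against healthy liver (called library size alone from here on). The split of all calls moved with it, from 4297 genes higher and 3831 lower to 7235 and 1389 in the first comparison, from 1403 and 1466 to 641 and 3586 in the second, and from 3169 and 2045 to 3810 and 839 in the third. One library of the mineral oil organoids, replicate 1, stood apart from the other two: it had 0 reads of the Y-linked gene Eif2s3y against 3914 and 3881, and its score on the first principal component was -38.9 against -120 and -132. In vitro, untreated replicate 3 and TGF-β1 plus extract replicate 3 stood apart, with scores of 79.6 and 95.3 against -27.2 to -23.2 in the other 7. Liver libraries were all from male animals by their reads, with 2 to 17 reads of Xist and 3054 to 4986 of Ddx3y.

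In healthy liver all 9 members were measured, over a wide range of levels. Per kilobase of exon, Slc22a18 was highest (60.6 CPM per kb, 53.3 to 67.3 over 3 libraries), followed by Slc22a30 (42.6) and Slc22a23 (14.4), with no overlap between these neighbours. Slc22a7 (9.65 CPM per kb) and Slc22a5 (6.80) overlapped, Slc22a28 stood at 3.79, and Slc22a26 (0.992), Slc22a3 (0.900) and Slc22a27 (0.840) did not differ beyond their spread. In CCl4 liver the order was Slc22a18 (48.3 CPM per kb), Slc22a30 (19.9), Slc22a23 (11.2), Slc22a7 (6.39) and Slc22a5 (3.47), and then Slc22a27, Slc22a3, Slc22a28 and Slc22a26 at 0.272 to 0.132, which overlapped as neighbours. In extract liver Slc22a7 (23.0) stood above Slc22a23 (14.6), Slc22a27 reached 4.14 and Slc22a26 1.37, and Slc22a28 (0.229) and Slc22a3 (0.182) overlapped at the bottom. Of 6 kidney tubule markers, looked at because many organic anion transporters are kidney genes, Umod, Slc34a1, Slc12a1, Kap and Slc5a2 had 0 reads in healthy and CCl4 liver, and the summed level of the 6 was 0.0737 to 0.481 CPM in healthy and 0.362 to 0.876 CPM in CCl4 liver.

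All 9 members were lower in CCl4 liver than in healthy liver, by 1.25-fold for Slc22a18 to 23.2-fold for Slc22a28. Over all 15078 genes tested, 25.4% fell, and nothing is read from the members' count beside it because their choice may have used this contrast. The median log2 fold change was -1.12 over the 9 members and 0.00 over all genes. Extract-treated CCl4 liver split them: Slc22a26, Slc22a27, Slc22a7, Slc22a5, Slc22a30 and Slc22a18 were higher than in CCl4 liver, while Slc22a28 and Slc22a3 overlapped the CCl4 libraries and Slc22a23 did not pass. Of all genes, 9.30% rose in that comparison. With library size alone, 6 of 9 members passed as lower with CCl4, Slc22a18 and Slc22a23 standing at 0.06 and 0.00, and 4 in place of 6 passed as higher with the extract.

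**Figure D1:**
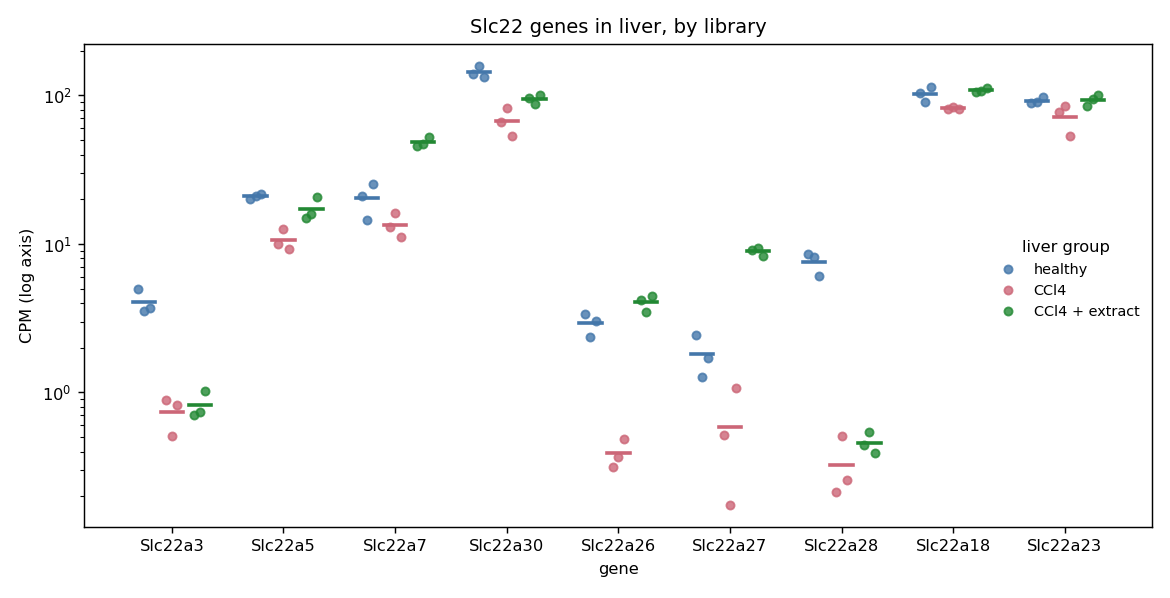
CPM on a log axis of the 9 Slc22 genes in each liver library (points, 3 per group) with the group mean (bar). Slc22a3 and Slc22a28 stay low with the extract, whereas Slc22a26 and Slc22a27 are higher in every extract library than in any CCl4 library.

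Among the cation and carnitine transporters, Slc22a3, the broad-specificity cation carrier (chromosome 17, 12419972 to 12507704), stood at 4.96, 3.53 and 3.69 CPM in healthy liver, 0.893, 0.508 and 0.827 in CCl4 liver and 0.701, 0.735 and 1.03 in extract liver. Both CCl4 groups lay below all healthy libraries and overlapped each other. It fell by 2.41 ± 0.27 with CCl4, and the extract group remained 2.26 ± 0.27 below healthy liver on the log2 scale; the 2 CCl4 groups differed by 0.16 (95% interval -0.42 to 0.74), which did not pass.

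Slc22a5, the carnitine transporter (chromosome 11, 53864542 to 53891796), stood at 20.0, 21.1 and 21.6 CPM in healthy, 9.97, 12.7 and 9.27 in CCl4 and 14.9, 15.9 and 20.6 in extract liver. The CCl4 libraries lay below both other groups without overlap. Its log2 fold change was -0.98 ± 0.15 with CCl4 and 0.68 ± 0.15 with the extract, which left it at 82.0% of the healthy mean. Extract and healthy liver overlapped (-0.30 ± 0.15, which did not pass), but without extract replicate 3 the difference was -0.44 and passed.

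Carnitine is made by Bbox1 and its partners and carries fatty acyl groups into mitochondria. Of 11 tested genes of that pathway, 8 fell with CCl4 and none rose, and 5 rose with the extract and none fell. With library size alone these counts were 5 lower and 1 higher with CCl4, and 2 higher with the extract. Under the authors' scaling 25.4% of all genes fell and 28.5% rose with CCl4, and 9.30% rose with the extract. Crot, which moves medium-chain acyl groups onto carnitine, went from 714 to 374 and 555 CPM (-0.93 ± 0.19, adjusted p = 0.00159, then 0.59 ± 0.19, adjusted p = 0.0508, limma). Cpt1a, the entry enzyme of mitochondrial fatty acid oxidation, fell by 0.60 ± 0.14 (limma adjusted p = 0.00342) and differed by 0.11 ± 0.14 with the extract. Acadvl, which oxidizes very long acyl chains, fell by 0.63 ± 0.11 and rose by 0.35 ± 0.11 (limma adjusted p = 0.000466 and 0.0451). Among 5 tested genes of amine and cation handling, 3 fell and 1 rose with CCl4, and 1 rose with the extract: Slc47a1, the Mate1 exporter of cations into bile, went from 113 to 63.4 and 120 CPM (-0.85 ± 0.13, limma adjusted p = 0.000170, then 0.94 ± 0.13, adjusted p = 0.000513).

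Slc22a7, the organic anion transporter Oat2 (chromosome 17, 46432185 to 46438477), was one of 2 members called higher than in healthy liver with the extract. It stood at 21.1, 14.5 and 25.2 CPM in healthy liver, 13.0, 16.2 and 11.1 in CCl4 liver and 45.7, 46.8 and 52.2 in extract liver. Every extract library lay above every other, whereas healthy and CCl4 liver overlapped. With the extract it was 1.86 ± 0.19 above CCl4 liver and 1.28 ± 0.19 above healthy liver, or 238% of the healthy mean. Its fall with CCl4 (-0.57 ± 0.19) rested on few libraries: it no longer passed without healthy replicate 1 (-0.53) or 3 (-0.40) or without CCl4 replicate 1 (-0.56) or 3 (-0.45), nor with library size alone (-0.19).

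In the chromosome 19 cluster, Slc22a26 stood at 3.40, 2.36 and 3.02 CPM in healthy, 0.314, 0.368 and 0.483 in CCl4 and 4.19, 3.50 and 4.46 in extract liver. The CCl4 libraries hold 19 to 28 reads of it, and none overlaps another group. Its log2 fold change was -2.80 ± 0.22 with CCl4 and 3.28 ± 0.22 with the extract, and extract minus healthy liver was 0.47 ± 0.22, which did not pass although the libraries did not overlap.

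Slc22a27 stood at 2.44, 1.27 and 1.71 CPM in healthy, 0.513, 0.175 and 1.07 in CCl4 and 9.14, 9.33 and 8.27 in extract liver. Extract libraries lay above all others, at 493% of the healthy mean. It fell by 1.82 ± 0.46 with CCl4 (1.19 without CCl4 replicate 2, which holds 10 reads of it) and rose by 4.15 ± 0.46 with the extract, or 2.32 ± 0.46 above healthy liver. Its near copy Slc22a29, no member here, did likewise: 0.684, 0.361 and 1.40 CPM in healthy, 0.0661, 0.0350 and 0.155 in CCl4 and 1.76, 3.87 and 3.72 in extract liver (log2 fold change -2.72 ± 0.51, limma adjusted p = 0.000823, then 4.72 ± 0.51, adjusted p = 0.000136). Reads of Slc22a29 were 12.9% to 81.7% of those of Slc22a27 over the 9 libraries, so the share was not fixed. Summing Slc22a26 and Slc22a27 gave 3.63 to 5.84 CPM in healthy, 0.543 to 1.55 in CCl4 and 12.7 to 13.3 in extract liver.

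Slc22a28 showed the largest fall of the 9. It stood at 8.52, 8.20 and 6.08 CPM in healthy liver (486, 341 and 330 reads), 0.215, 0.508 and 0.258 in CCl4 liver (13, 29 and 15 reads) and 0.446, 0.543 and 0.388 in extract liver. Both CCl4 groups lay far below healthy liver and overlapped each other. Its log2 fold change was -4.46 ± 0.30 with CCl4, and extract liver remained 3.94 ± 0.30 lower than healthy liver, at 6.04% of the healthy mean. Extract minus CCl4 was 0.52 (95% interval -0.15 to 1.18), and only without CCl4 replicate 2 did this pass (0.85).

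Slc22a30, whose coding and upstream sequence nearly equals that of Slc22a28, was the most abundant member of the cluster and changed far less. It stood at 140, 158 and 133 CPM in healthy, 65.8, 81.8 and 53.2 in CCl4 and 95.7, 86.9 and 101 in extract liver, with no overlap between groups. It fell by 1.12 ± 0.14 with CCl4 and remained 0.60 ± 0.14 below healthy liver with the extract. Its rise with the extract (0.52 ± 0.14) no longer passed with library size alone (0.28), nor without CCl4 replicate 1 (0.52) or 3 (0.36) or extract replicate 1 (0.51) or 3 (0.47). Reads of Slc22a28 were 4.58% to 6.09% of those of Slc22a30 in healthy liver and 0.327% to 0.624% in the 6 CCl4 libraries. The share thus differed between healthy and CCl4 liver. Whether the 13 to 31 reads of Slc22a28 in the 6 CCl4 libraries came from Slc22a28 or from Slc22a30 was not tested.

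**Figure D2:**
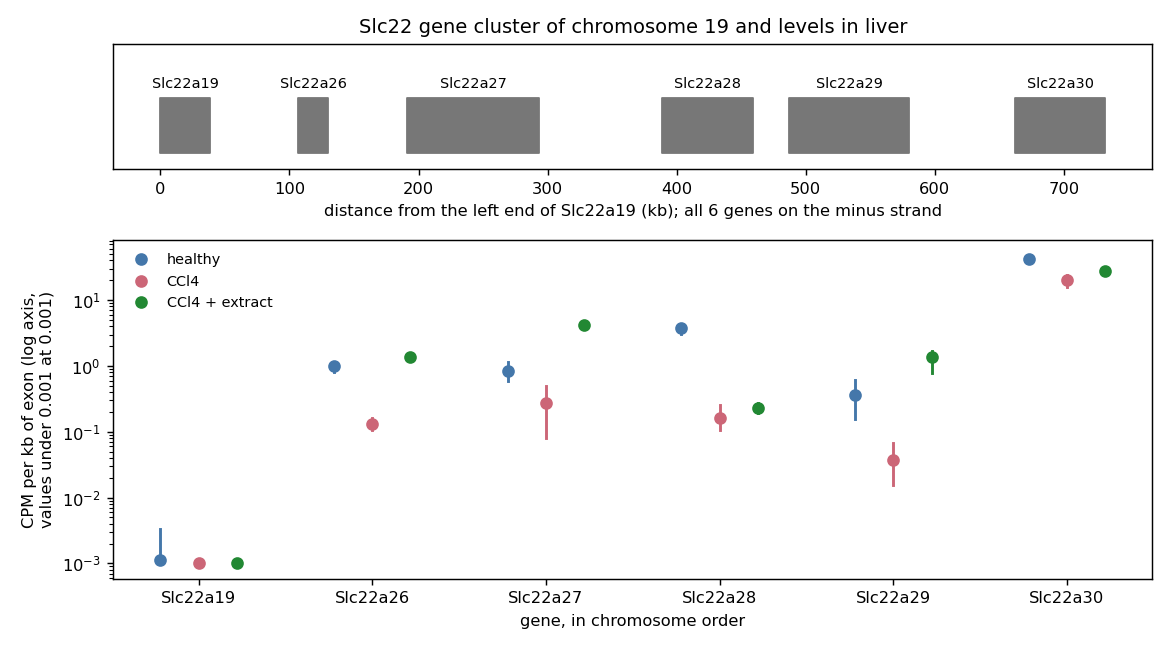
Top: the 6 Slc22 genes of the chromosome 19 cluster to scale, as distance in kb. Bottom: mean CPM per kb of exon on a log axis in the 3 liver groups (point) with the range of 3 libraries (line). Responses differ along the cluster: the near copies Slc22a27 and Slc22a29 both exceed healthy liver with the extract, Slc22a28 does not return, and Slc22a19 has a single read in 9 libraries.

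The members without a settled substrate moved least between healthy and CCl4 liver. Slc22a18 (chromosome 7, 143473726 to 143499334) stood at 104, 90.5 and 114 CPM in healthy, 80.8, 84.2 and 81.4 in CCl4 and 105, 107 and 112 in extract liver. CCl4 libraries lay below both other groups. Its fall (-0.32 ± 0.10) turned to 0.06 with library size alone, so its direction depends on the scaling; its rise with the extract (0.40 ± 0.10) was 0.16 and did not pass with library size alone, nor did it pass without CCl4 replicate 1 (0.39) or extract replicate 2 (0.40) or 3 (0.37). Slc22a23 (chromosome 13, 34179158 to 34345275) stood at 88.3, 90.4 and 97.7, then 77.1, 84.9 and 53.2, then 85.0, 94.1 and 101 CPM. CCl4 libraries were the lowest, without overlap with the other groups, and CCl4 replicate 3 was the lowest of all. Its log2 fold change of -0.39 ± 0.15 was 0.00 with library size alone and -0.19 without CCl4 replicate 3. It also did not pass without healthy replicate 1 (-0.42), 2 (-0.40) or 3 (-0.34). With the extract it was 0.41 ± 0.15 higher, which passed only without CCl4 replicate 2 (0.54).

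**Figure D3:**
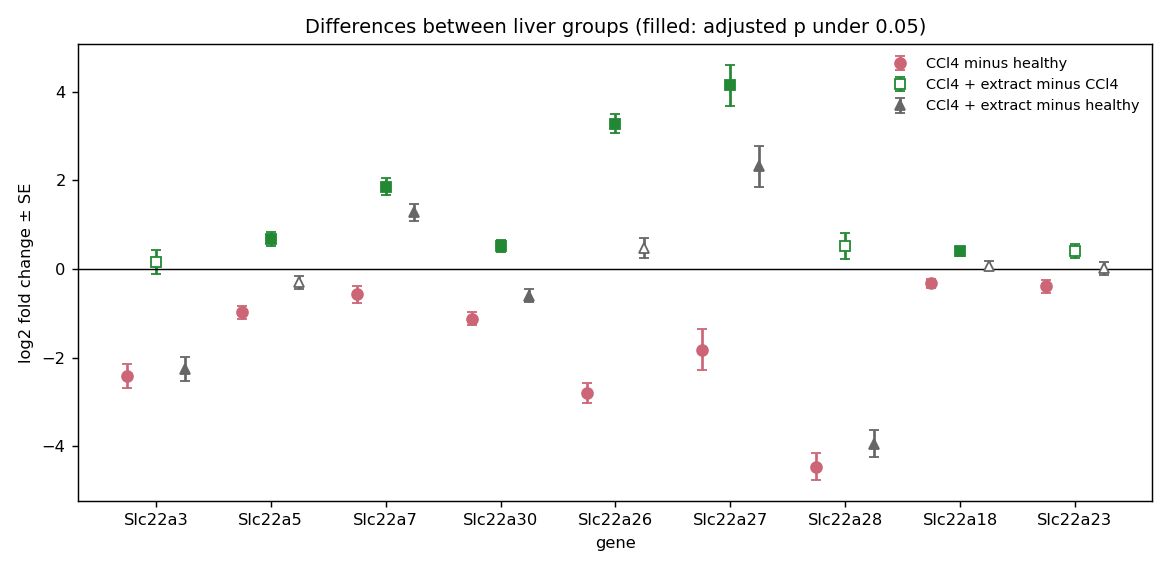
Log2 fold change ± SE (limma) of each Slc22 gene in 3 comparisons of liver groups; filled symbols have an adjusted p under 0.05, open symbols do not. Slc22a7 and Slc22a27 lie above 0 against healthy liver with the extract, and Slc22a3, Slc22a28 and Slc22a30 below it.

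Set against healthy liver, extract-treated liver had 2 members higher (Slc22a7 and Slc22a27; 21.0% of all genes were higher) and 3 lower (Slc22a3, Slc22a28 and Slc22a30; 13.6% of all genes were lower). Slc22a5, Slc22a18, Slc22a23 and Slc22a26 did not pass. Comparisons of the extract group with CCl4 and with healthy liver share the extract libraries.

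Among other Slc22 genes with enough reads in liver to test, Slc22a4, Slc22a15 and Slc22a29 fell with CCl4 and Slc22a17 rose, where 28.5% of all genes rose. With the extract Slc22a4, Slc22a15 and Slc22a29 rose. With library size alone Slc22a15 passed in neither (-0.25 and 0.42). The rise of Slc22a17, from 1.30 to 2.09 CPM (0.64 ± 0.24, limma adjusted p = 0.0383), did not pass without healthy replicate 1 (0.56) or 2 (0.67) or CCl4 replicate 1 (0.72) or 3 (0.42). Without extract replicate 3, Slc22a4 (0.84) and Slc22a15 (0.57) did not pass with the extract. Of the genes beside Slc22a3, Plg, the plasminogen gene, fell by 0.81 ± 0.16 with CCl4, and Igf2r, an imprinted receptor gene, differed by 0.35 ± 0.15 (adjusted p = 0.0690). Slc22a4 (Octn1), near Slc22a5, stood at 4.17 ± 0.626, 1.19 ± 0.274 and 2.37 ± 0.424 CPM (mean ± SD, n = 3). None of the 8 tested genes beside Slc22a18 fell with CCl4 and 4 rose (7 with library size alone), where 25.4% of all genes fell and 28.5% rose.

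The marker lists moved with these results, and their part in them was not tested. All 10 hepatocyte markers exceeded 1 CPM in each group; their summed level was 127940 to 143405 CPM in healthy, 103572 to 111437 in CCl4 and 128002 to 146483 in extract liver, and 5 of them fell with CCl4. The 8 stellate cell and myofibroblast markers summed to 179 to 221, 1014 to 1574 and 625 to 759 CPM, with none at 0. Fewer cells of a type and less RNA per cell cannot be told apart in such tissue samples. Of 15 transcription factors known to act on hepatic transporter genes, 12 fell with CCl4 and 6 rose with the extract (10 and 5 with library size alone, where 1 also rose with CCl4). Over all genes, 25.4% fell with CCl4 and 9.30% rose with the extract. Hnf4a, which maintains hepatocyte identity, went from 1028 to 483 and 601 CPM (-1.10 ± 0.12, limma adjusted p = 1.44e-05, then 0.33 ± 0.12, adjusted p = 0.0783). Cebpa fell by 1.39 ± 0.12 and rose by 0.61 ± 0.12 (limma adjusted p = 1.86e-06 and 0.00416), and Rxra, the partner of many nuclear receptors, fell by 0.95 ± 0.13 and rose by 0.48 ± 0.13 (adjusted p = 6.39e-05 and 0.0199).

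In organoids 3 of the members had enough reads to test: Slc22a5, Slc22a18 and Slc22a23. Slc22a3, Slc22a7, Slc22a26, Slc22a27 and Slc22a28 had at most 2 reads in any organoid library of the in vivo set, and Slc22a30 had 0, 1 and 0 reads in mineral oil, 8, 4 and 10 in CCl4 and 6, 9 and 7 in extract organoids. In mineral oil organoids hepatocyte markers summed to 951 to 3820 CPM, and cholangiocyte and progenitor markers to 7853 to 8961. In CCl4 organoids these sums were 3745 to 7423 and 5945 to 6580 CPM. Of 7 tested hepatocyte markers 4 were higher with CCl4, where 20.4% of all genes were. Of the 10 hepatocyte markers, 5 had a mean of at least 1 CPM in CCl4 organoids, while Cyp2e1 had 0 reads there with and without the extract. Stellate cell markers summed to 0.640 to 2.33 CPM in mineral oil and CCl4 organoids.

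In organoids of CCl4 mice, Slc22a18 was higher than in organoids of mineral oil mice, whereas in liver it was lower with CCl4 under the authors' scaling. It stood at 67.9, 35.8 and 29.7 CPM in mineral oil, 128, 106 and 104 in CCl4 and 97.5, 101 and 92.5 in extract organoids. Both CCl4 groups lay above all mineral oil libraries. Its log2 fold change was 1.43 ± 0.27 with CCl4 (1.78 without mineral oil replicate 1) and 1.22 ± 0.27 for extract against mineral oil (1.57 without it). Slc22a5 stood at 74.2, 52.9 and 51.3, then 71.5, 81.2 and 78.3, then 78.0, 74.8 and 77.5 CPM. Mineral oil replicate 1 lay within the range of the CCl4 libraries, so these groups overlap. Its log2 fold change of 0.39 ± 0.14 passed, and was 0.56 without mineral oil replicate 1. It did not pass without mineral oil replicate 2 (0.32) or 3 (0.30) or without CCl4 replicate 1 (0.44), 2 (0.35) or 3 (0.38). Slc22a23 stood at 363, 261 and 245, then 279, 266 and 238, then 238 CPM in each extract library, and did not pass in any comparison of this table (-0.13 ± 0.14 with CCl4, 0.04 without mineral oil replicate 1). Thus 2 of 3 tested members were higher with CCl4, where 20.4% of all genes were higher, and 1 of 3 was higher in extract than in mineral oil organoids, where 17.2% were.

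With the extract none of the 3 passed in organoids of CCl4 mice, where 0% of all 14818 genes did (269 at an unadjusted p under 0.05). Log2 differences were 0.00 (95% interval -0.31 to 0.31) for Slc22a5, -0.21 (-0.82 to 0.40) for Slc22a18 and -0.13 (-0.46 to 0.20) for Slc22a23. All 3 extract libraries lay below the CCl4 libraries for Slc22a18, and the groups overlapped for the other two.

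**Figure D4:**
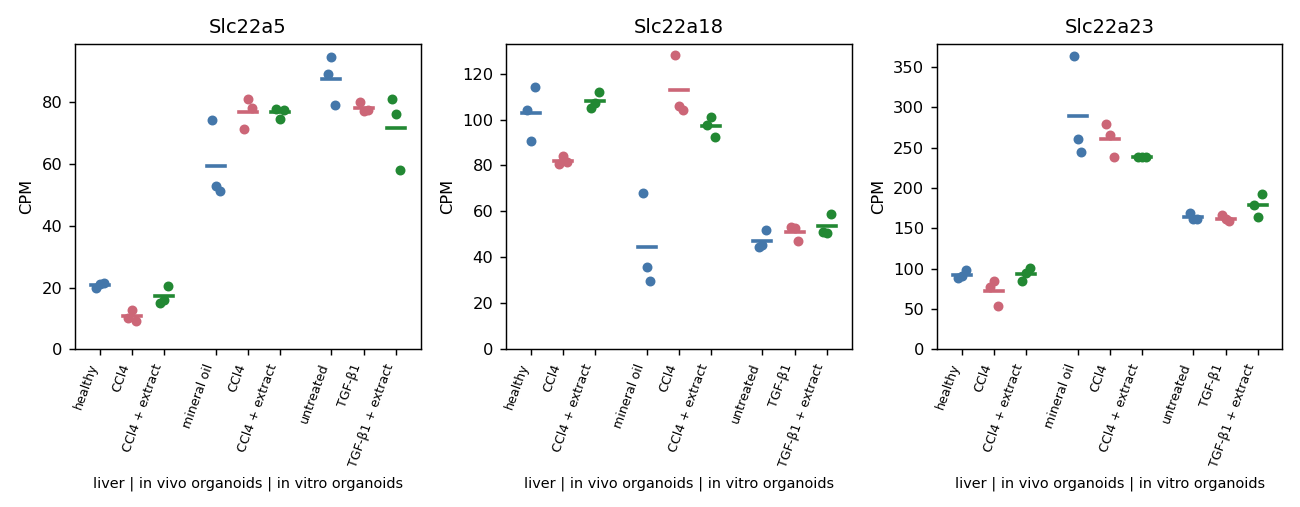
CPM of Slc22a5, Slc22a18 and Slc22a23 in each library (points) with group means (bars), in liver, in vivo fibrosis organoids and in vitro fibrosis organoids; the 3 sets were normalized separately. Mineral oil replicate 1 is the highest point of its group in all 3 panels.

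The CCl4 effect in organoids minus that in liver was 1.37 ± 0.21 for Slc22a5 and 1.75 ± 0.29 for Slc22a18, both past the threshold, and 0.26 ± 0.22 for Slc22a23, which did not pass. Of the 13142 genes tested in both tables, 54.1% differed. The choice of members may have used either contrast, so these differences are a description and nothing is read from the calls. The controls were not alike, since liver had mice labelled healthy and organoids mice given mineral oil. For the extract effect none of the 3 differed between organoids and liver (7.02% of all genes did), with -0.68 ± 0.21 for Slc22a5, -0.61 ± 0.29 for Slc22a18 and -0.54 ± 0.22 for Slc22a23; without CCl4 liver replicate 2, 1 member passed. The extract reached the liver in the animal and the organoids in the dish.

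Other Slc22 genes split in these organoids. Slc22a4 fell from 30.0 ± 5.32 to 10.1 ± 1.50 CPM with CCl4 (-1.56 ± 0.16, limma adjusted p = 0.000275), and Slc22a21 and Slc22a17 rose (SD, n = 3). In this comparison 20.4% of all genes were higher and 19.9% lower. Slc22a21 shares sequence with Slc22a5 and rose by 0.62 ± 0.21 (adjusted p = 0.0463), again with overlapping groups; this did not pass with median-of-ratios scaling (0.61) or without mineral oil replicate 2 (0.54) or 3 (0.46) or CCl4 replicate 1 (0.59), 2 (0.56) or 3 (0.72). Of 10 tested carnitine genes, 7 rose with CCl4 and none fell, Aldh9a1 by 1.74 ± 0.23 and Cpt1a by 0.80 ± 0.17 (limma adjusted p = 0.000877 and 0.00763), while Acadl, a long-chain acyl dehydrogenase gene, differed by 0.20 ± 0.12. Of 13 tested transcription factors, 7 rose and 2 fell, with Hnf4a at 375, 1070 and 922 CPM in mineral oil, CCl4 and extract organoids. Of 7 tested genes beside Slc22a18, 2 rose and 3 fell; Cd81 went from 548 to 187 CPM and Kcnq1 from 129 to 74.8, against the direction of Slc22a18. Cholangiocyte markers moved too, 5 of 8 falling. Of 5 intestinal absorptive cell markers 3 rose, and their summed level was 1113 to 3491 CPM in mineral oil organoids (median 1196) and 2523 to 3214 in CCl4 organoids. The part of cell composition was not tested. Without mineral oil replicate 1 these counts were 8 higher for carnitine genes, 8 higher and 2 lower for transcription factors, 2 higher and 4 lower beside Slc22a18, 2 higher and 5 lower for cholangiocyte markers, and 4 higher for intestinal absorptive cell markers. The shares of all genes given above are from the fit with that library.

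In vitro, the 3 genes varied little between groups. Slc22a5 stood at 89.2, 94.7 and 79.3 CPM untreated, 80.0, 77.1 and 77.7 with TGF-β1 and 81.2, 76.2 and 58.0 with TGF-β1 plus extract. Slc22a18 stood at 44.4, 45.3 and 52.0, then 53.4, 52.6 and 47.2, then 51.2, 50.4 and 59.0 CPM, and Slc22a23 at 169, 161 and 161, then 166, 161 and 159, then 179, 164 and 192. All groups overlap. None of the 3 passed with TGF-β1 (0.0213% of 14116 genes did), with the extract after TGF-β1 (0% did) or with both against untreated (0.0142% did). In limma at an unadjusted p under 0.05, the count was 0, 0 and 1 members, and 1745, 271 and 1302 of all genes. Log2 differences with TGF-β1 were -0.16 (95% interval -0.45 to 0.13) for Slc22a5, 0.11 (-0.10 to 0.33) for Slc22a18 and -0.01 (-0.17 to 0.14) for Slc22a23. The lowest Slc22a5 and the highest Slc22a18 value with TGF-β1 plus extract belong to replicate 3, which stood apart. Without it and untreated replicate 3, Slc22a5 was 0.23 lower and Slc22a18 0.19 higher with TGF-β1 on the log2 scale, and both passed, as did Slc22a5 with both agents against untreated (-0.22). The shares of all genes given above are from the fit with every library, so nothing is read from these calls. Slc22a4 went from 40.8 ± 11.2 to 23.5 ± 2.20 CPM (SD, n = 3) without overlap between untreated and TGF-β1 organoids, which did not pass over all genes (limma adjusted p = 0.193).

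By likeness of pattern, the genes with the highest Pearson r to each member over the 9 libraries of one table were found, as a description over libraries that share groups. In liver these were Slc1a2, Mup-ps12 and Srgap3 for Slc22a3 (r = 0.984, 0.983 and 0.979), Ttr, Agt and Mecr for Slc22a7 (0.985, 0.973 and 0.972), and Fgfr4, Kctd2 and Rcan2 for Slc22a26 (0.990, 0.979 and 0.978). Ttr and Agt encode secreted hepatocyte proteins. Slc22a27 was nearest to Snord4a (r = 0.949), to its copy Slc22a29 (0.945) and to Gstm2 (0.942), and no gene had r over 0.95 to it. Slc22a28 was nearest to Klhl2, Nox4 and Rnf217 (0.989, 0.989 and 0.988) and Slc22a30 to Klhl12, Prkd3 and Rcbtb1 (0.997, 0.997 and 0.994). In the in vivo organoids Slc22a18 was nearest to Crat, the carnitine acetyltransferase gene, Akr1c12 and Txndc17 (0.998, 0.997 and 0.997), and Slc22a23 to Pirb, Vamp3 and 4833439L19Rik (0.988, 0.980 and 0.980). In the in vitro organoids Slc22a5 was nearest to Paics, Serp1 and Gabrp (0.988, 0.988 and 0.987). Genes with r over 0.95 numbered 7 for Slc22a7, 8 for Slc22a26, 29 for Slc22a23, 54 for Slc22a3 and 81 for Slc22a5. They numbered 168 for Slc22a28, 367 for Slc22a30 and 1005 for Slc22a18, so the genes named for these members stand among many near ties.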

How the data were processed

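The authors deposited 3 tables of log2 values per gene and library, one per experiment and normalized separately; the submitters' processing notes name mm10, and libraries were stranded mRNA libraries from 1.2 µg of RNA, per the labels' protocols. No source used here names the aligner, counter or annotation. From the values, they are log2 CPM with 2 prior counts added, scaled by library size and the authors' factor; undoing this gave whole reads (within 0.05) for 100.0% of genes in every library. The authors' scaling factors were 0.854 to 1.217. Columns of other samples numbered 0.

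Reads were turned into CPM. Genes with about 10 reads in 3 libraries and 15 in all were tested on the log2 scale with limma 3.58.1 (R 4.3.3, intensity trend, one fit per table) and Benjamini-Hochberg adjustment over all genes tested; the fit was checked on simulated data. Differences between tables used one fit over both, on genes tested in both. Exon lengths are from GENCODE M21. Replicates differed by 5.84 to 559 times the counting variance. Groups in one fit were unlike in this: 5.84 to 10.1 in extract organoids of CCl4 mice and 23.8 to 559 in mineral oil organoids. Of the comparisons, only untreated against TGF-β1 plus extract organoids had every same-numbered pair of deviations correlated over 0.1 (0.53, 0.58 and 0.72). With the replicate number as a block 0 members passed there, as without it. Differently numbered libraries correlated alike: 0.50 for untreated 1 with TGF-β1 plus extract 2, and 0.58 for untreated 2 with TGF-β1 plus extract 1. Both replicates 3 stood apart, so these correlations cannot show whether the numbers pair the samples. The members and gene lists were chosen with earlier results of these data known. Named genes are all members, other Slc22 genes with a group mean of 1 CPM or more, the 3 most abundant genes of each list and the 3 nearest patterns; Slc22a genes under 1 CPM, Slc22a19, the X- and Y-linked genes, AC115715.1 and the liver genes that differ between the sexes were added after their values were seen. Intervals cover counting and replicate error only. One gene of the lists is not reported here.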

Additional observations from a re-analysis of the deposited data

Results flagged for a closer look

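The CCl4 effect on 2 transporters passed the threshold for a difference between organoids and liver in a fit over both tables. The members may have been chosen on either contrast, so this is a description and nothing is read from the calls. For Slc22a5 the difference (organoids minus liver) was 1.37 ± 0.21 on the log2 scale, from 0.39 in organoids and -0.98 in liver. For Slc22a18 it was 1.75 ± 0.29, from 1.43 and -0.32. Under each alternative that was run 2 members passed, and 54.1% of all genes tested in both tables differed as well.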

How the results depend on the processing

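Of 735 alternative values of the 45 gene results, 688 kept direction and side of the threshold, 37 no longer passed, 9 passed in addition and 1 reversed: Slc22a18 in CCl4 against healthy liver was 0.06 with library size alone. Of 3 tested genes, those that passed between CCl4 and mineral oil organoids numbered 1 in place of 2 with median-of-ratios scaling, a prior count of 0.5, limma voom, no intensity trend, the replicate block or only the 2 groups compared, Slc22a5 being lost each time; leaving out 1 library gave 1 to 2. Between extract and mineral oil organoids, 2 in place of 1 passed with library size alone, with no filter on low values (where Slc22a28 and Slc22a30 are tested too) and without mineral oil replicate 1 (1 to 2 over single libraries left out). Without both in vitro libraries that stood apart, 2 members passed for TGF-β1 and 1 for TGF-β1 plus extract against untreated, in place of 0. Leaving out single libraries gave 7 to 9 of 9 members for CCl4, 4 to 8 for extract against CCl4 and 5 to 6 for extract against healthy liver. For the extract effect in organoids minus liver, 0 to 1 passed. The share of all genes that passed is not given for fits that left out libraries, so nothing is read from those counts. Alternatives for differences between tables were chosen after seeing the data; with no filter they were not run. The labels do not say that replicate numbers pair samples. Same-numbered deviations correlated at -0.14 to 0.14 in liver, -0.15 to 0.37 in vivo and -0.04 to 0.72 in vitro. Differently numbered ones did so at -0.11 to 0.10, -0.38 to 0.31 and -0.65 to 0.58. Under the replicate block 8 of 9 members passed for CCl4 liver, Slc22a23 being lost. Members with 10 to 31 reads in a library (Slc22a26, Slc22a27 and Slc22a28 in CCl4 liver) are limited by depth.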

Other observations

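Liver genes known to differ between male and female mice were picked after their values were seen, so only values are given. Among genes higher in males, Hsd3b5, a steroid dehydrogenase, stood at 195 to 229 CPM in healthy, 0.364 to 1.59 in CCl4 and 0.140 to 0.298 in extract liver. Elovl3, a fatty acid elongase, stood at 234 to 466, 3.86 to 11.9 and 3.71 to 18.8 CPM, and Cyp4a12a, a fatty acid hydroxylase, at 260 to 423, 6.35 to 18.4 and 6.20 to 9.46 CPM. Cyp2d9 stood at 995 to 1031, 123 to 255 and 347 to 444 CPM, and Mup20, a major urinary protein gene, at 690 to 1240, 306 to 463 and 389 to 455 CPM. Among genes higher in females, Cyp2b9 stood at 6.44 to 40.7, 26.7 to 38.9 and 89.1 to 156 CPM, and Sult2a1 at 0 to 0.0184, 0 to 0.0689 and 0.271 to 0.700 CPM. All 9 liver libraries had male reads, so the animals' sex did not differ between groups.

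Slc22a17 had 0 reads in 7 of the in vitro organoid libraries and 141 and 187 reads (2.60 and 3.13 CPM) in untreated replicate 3 and TGF-β1 plus extract replicate 3, the pair that stood apart.

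In mineral oil organoid replicate 1, Eif2s3y had 0 reads while Kdm5d, another Y-linked gene, had 2337; the other 8 libraries of that table had 3881 to 5060 reads of Eif2s3y.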
